A study of Homo sapiens with 6 samples.

Results

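The RAB genes encode the largest family of Ras-like small GTPases, and their transcripts were compared here in A549, a long-established human cell line from an adenocarcinoma of the lung. A gene was taken as a member if its symbol was RAB followed by a number and at most 1 letter and 1 further digit. This gave 60 of the 18265 genes that the arrays tested, and they were measured by 166 probe sets. Each gene was represented by its brightest probe set over all arrays, and its other probe sets served as a check. The cells on 3 arrays had received a lentivirus with a short hairpin RNA (shRNA) directed at TIGD1, and those on the other 3 a lentivirus with a control hairpin. The arrays are called shTIGD1 and shControl here, after their labels. All 6 arrays carry RNA of the same line, grown in the same medium with serum, and each arm has a single hairpin. The labels number the arrays of an arm but name no separate cultures, so the p-values below cover only the spread among these samples, and that spread may be technical.

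RAB proteins are molecular switches on the surface of membranes. In the cytosol they are held in the GDP-bound form by a GDP dissociation inhibitor, which hides their lipid anchor. An exchange factor (GEF) loads GTP at a given membrane, the active form recruits effectors such as tethers, motors and sorting adaptors, and a GTPase-activating protein (GAP) ends the cycle. Different members mark different compartments, so that the set of RABs on a membrane gives it an address. In epithelial cells such as those of the lung they steer endocytosis, recycling, polarised delivery and secretion.

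The hairpin sequences define the groups, and both are designed 19-base sequences given in the labels.
shTIGD1: ctgctaacacaacatccat
shNC: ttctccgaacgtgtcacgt
TIGD1, the targeted gene, encodes a protein derived from a pogo-type transposase. It read 6.88, 6.84 and 6.86 on the shTIGD1 arrays, against 6.96, 6.93 and 6.85 on the shControl arrays. The ranges overlapped, and the log2 change was -0.06 (95% interval -0.16 to 0.04, limma adjusted p = 0.389). A lower level of the targeted transcript was thus not detected, and every comparison below is one between libraries labelled shTIGD1 and shControl.

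The quality of the libraries was checked on the same values. The median log2 signal of an array lay between 6.27 and 6.28, and the number of arrays limits the precision. Spiked hybridization controls averaged 10.25 on the shTIGD1 arrays and 10.46 on the shControl arrays, and the poly-A controls added to the RNA averaged 6.81 on the shTIGD1 arrays and 7.15 on the shControl arrays. The 3′ minus 5′ control signal of ACTB averaged 0.34 on the shTIGD1 arrays and 0.39 on the shControl arrays. That of GAPDH averaged -0.13 and -0.07, and for both genes the groups did not overlap. Of 11 markers fixed for an epithelial lung adenocarcinoma line, 0 had a mean under 5. Their summed level was 16.25 to 16.27 on the shTIGD1 arrays and 16.20 to 16.22 on the shControl arrays. Only 2 of the 11 were called, EPCAM and CDH1, both adhesion proteins of epithelia, which were higher by 0.87 and 0.66. The median log2 change of the 11 was 0.03. Of 16 immune markers tested, 9 had a mean under 5 and the summed level was 9.71 to 9.81 on the shTIGD1 arrays and 9.73 to 9.84 on the shControl arrays. Of 14 endothelial and 6 fibroblast markers, 9 and 4 had a mean under 5. The part that these differences had in the RAB results was not tested.

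Among the 60 RAB genes, 14 were higher in shTIGD1 and 7 lower at a Benjamini-Hochberg adjusted p under 0.05 (limma, adjusted over all 18265 genes). That is 23.3% higher and 11.7% lower, beside 9.79% of all genes higher and 14.0% lower. These backgrounds differ in signal, since 5478 of all 18265 genes had a mean under 5 but 10 of the 60 RAB genes. At a signal of at least 5 in 1 group, 18 of 50 RAB genes were higher and 6 lower. The shares of the 12936 genes at that signal were 16.8% and 23.6%. The median log2 change of the RAB genes was 0.05, against -0.04 over all genes tested, and 41 of the 60 changes were above 0. On the brightest probe sets the changes ran from -0.37 to 0.43, and the median size was 0.13 for RAB genes and 0.10 for all genes. The arrays of the groups did not overlap for 26 RAB genes that were higher and 11 that were lower, where the background was 16.9% and 25.5% of all genes. Against a minimum change of 1.2-fold (limma's treat), 0 RAB genes passed, with 3 higher and 1 lower at an unadjusted p under 0.05.

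The balance of the calls depends on scaling. The deposited values hold the arrays' distributions alike. When each array was instead scaled on its hybridization controls, 43 RAB genes were higher (71.7%) and 1 lower, beside 47.8% of all genes higher and 1.98% lower, and the median change of all genes moved to 0.17. With the poly-A controls, 54 were higher (90.0%) and 0 lower (0 lower at an unadjusted p under 0.05), beside 76.5% and 0.652% of all genes, and the median of all genes moved to 0.30. Changes are therefore given relative to the bulk of the genes. Of the 7 RAB genes called lower, RAB31 alone kept its sign on the poly-A scale, at -0.04 (adjusted p = 0.535).

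**Figure D1:**
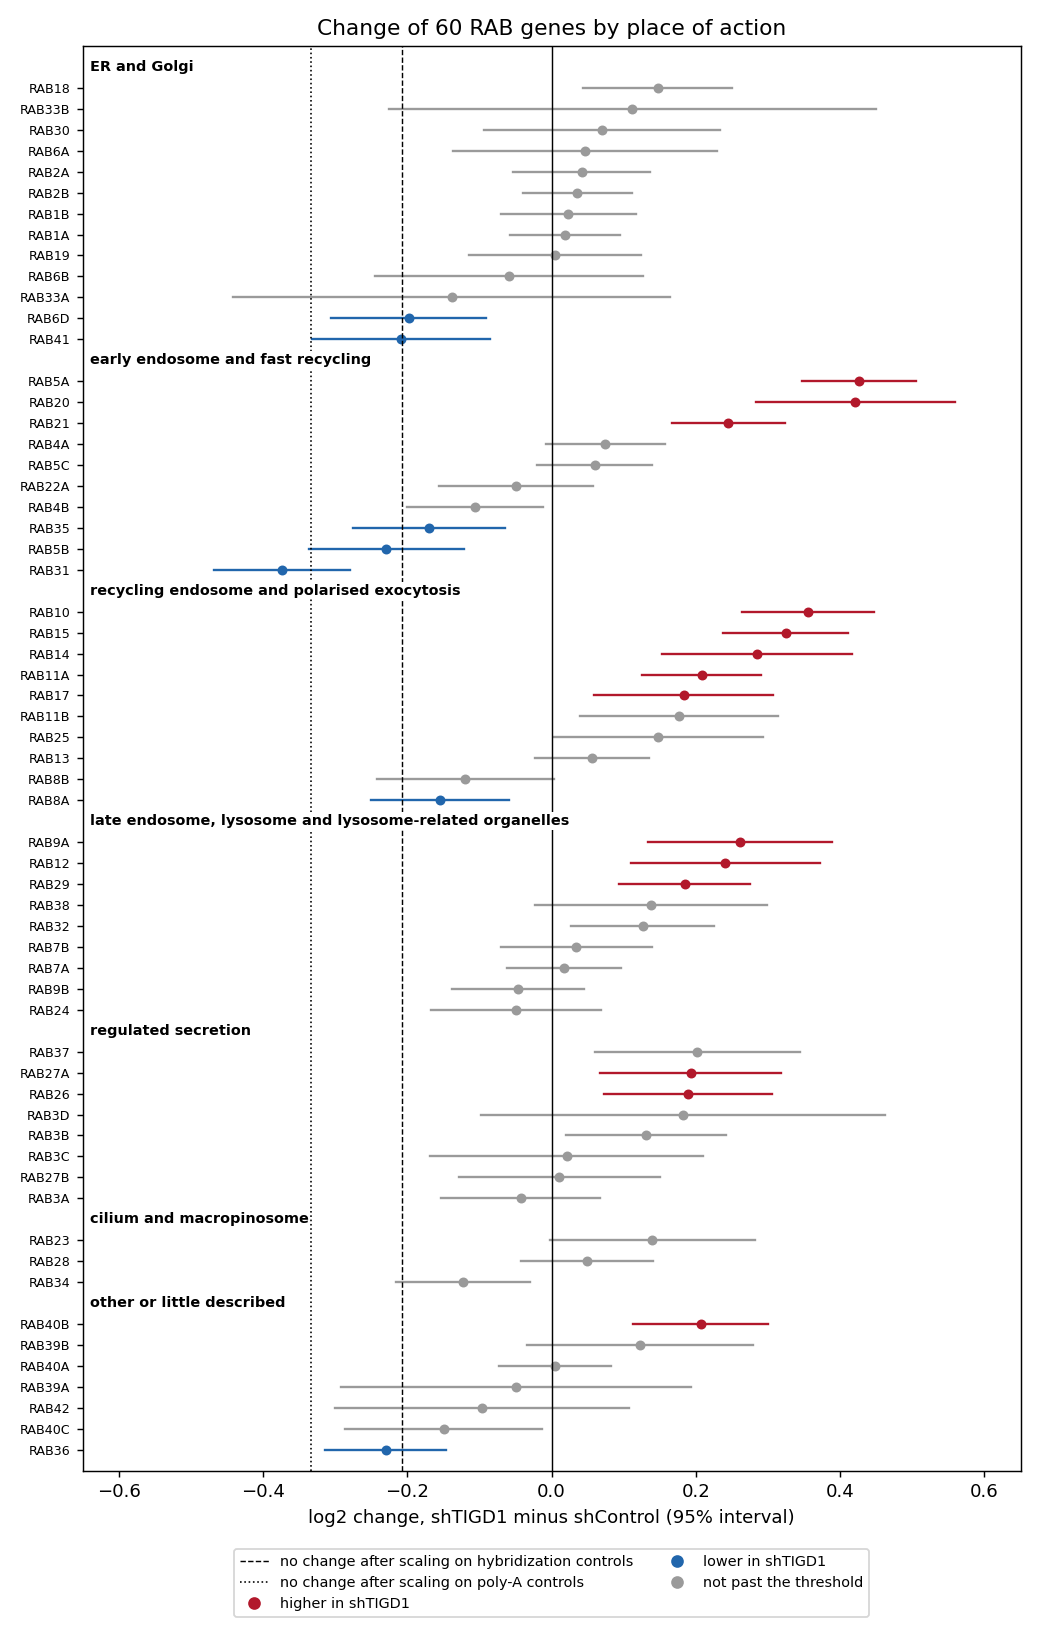
Log2 change of each of the 60 RAB genes (horizontal axis, shTIGD1 minus shControl, with its 95% interval) by the compartment where the protein is known to act. Red points passed the test as higher, blue points as lower and grey points did not pass. The dashed and dotted lines show where a gene would lie if it were unchanged on the scale of the hybridization or the poly-A controls, and on the poly-A scale only RAB31 of the blue points stays on the lower side.

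Members were ordered by the compartment their proteins are best known for, although several act at more than 1. Early endosomes and the fast recycling route to the plasma membrane held the members with the largest changes in both directions. Of 10 genes, 3 were higher and 3 lower, with a median of 0.01. Of all genes, 9.79% were higher and 14.0% lower, or 16.8% and 23.6% at a signal of at least 5 in 1 group. RAB5A, which drives fusion of endocytic vesicles and early endosomes, had log2 signals of 11.17, 11.21 and 11.18 on the shTIGD1 arrays, against 10.77, 10.73 and 10.77 on the shControl arrays. All shTIGD1 arrays lay above all shControl arrays. Its change of 0.43 (SE 0.03) was an increase of 34.3% (95% interval 27.2 to 41.9%, adjusted p = 0.000778). The mean of its 4 probe sets gave 0.70.

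RAB5B, a close relative at the same endosomes, differed in the other direction on its brightest probe set alone. Its other probe sets gave 0.06 and 0.20, neither past the threshold, and the mean of all 3 gave 0.0091 (adjusted p = 0.913). The brightest read 9.23, 9.15 and 9.15 in shTIGD1, against 9.44, 9.34 and 9.44 in shControl, again without overlap. The change of -0.23 (SE 0.04, adjusted p = 0.0139) missed the threshold without shTIGD1 replicate 3, at an adjusted p of 0.0522, and became 0.10 on the poly-A scale. The third relative, RAB5C, gave 0.06 with an interval of -0.02 to 0.14 and did not pass.

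RAB31, which carries cargo between the trans-Golgi network and endosomes, had the largest fall on the brightest probe sets. It read 9.31, 9.31 and 9.26 on the shTIGD1 arrays and 9.62, 9.71 and 9.67 on the shControl arrays. The groups were well apart, and the change was -0.37 (SE 0.04, adjusted p = 0.00182). The second brightest probe set gave -0.11 and did not pass (adjusted p = 0.108), while the mean of all 4 gave -0.25 and did. Its near relative RAB22A, which sorts cargo at early endosomes, gave -0.05 and did not pass.

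RAB20, an endosomal and phagosomal RAB that hypoxia is known to induce, read 7.86, 7.92 and 7.84 in shTIGD1 and 7.37, 7.57 and 7.43 in shControl. The lowest shTIGD1 array lay above the highest shControl array, and the change was 0.42 (SE 0.06, adjusted p = 0.00426). RAB21, which binds integrins and takes part in their endocytosis, read 9.69, 9.68 and 9.69 in shTIGD1, against 9.46, 9.46 and 9.41 in shControl. Its arrays were tightly grouped on both sides, and the change was 0.24 (SE 0.03, adjusted p = 0.00391). RAB35, which returns cargo quickly to the cell surface, gave -0.17 (adjusted p = 0.035), but this call was lost without any 1 of the 6 arrays (adjusted p of 0.0555 to 0.11) and its sign turned on the scale of either control, to 0.04 and 0.16. RAB4A and RAB4B, of the same fast route, gave 0.07 and -0.11 and did not pass.

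The 5′ flanks of RAB5A, RAB10 and RAB31 are shown because these members had the largest changes among those with a window in the RefSeq table. They are 300-base windows from 250 bases before to 50 after the annotated start, from RefSeq on GRCh38.p14, plus strand, at chr3:19946847-19947146 for RAB5A, chr2:26033834-26034133 for RAB10, chr18:9708051-9708350 for RAB31 and chr12:55973699-55973998 for RAB5B. RAB5B stands beside RAB5A as the relative that differed in the other direction on its brightest probe set, and its window is the first of 2. Capitals mark the motif CACGTG, or the CCAAT box, which lies on the opposite strand and so is printed as its complement.
RAB5A: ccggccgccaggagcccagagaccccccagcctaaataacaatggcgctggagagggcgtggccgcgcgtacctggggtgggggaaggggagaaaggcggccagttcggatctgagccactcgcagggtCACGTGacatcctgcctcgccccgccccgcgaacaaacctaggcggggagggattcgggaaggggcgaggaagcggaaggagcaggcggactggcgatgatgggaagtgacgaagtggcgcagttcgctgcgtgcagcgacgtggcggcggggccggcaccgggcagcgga
RAB10: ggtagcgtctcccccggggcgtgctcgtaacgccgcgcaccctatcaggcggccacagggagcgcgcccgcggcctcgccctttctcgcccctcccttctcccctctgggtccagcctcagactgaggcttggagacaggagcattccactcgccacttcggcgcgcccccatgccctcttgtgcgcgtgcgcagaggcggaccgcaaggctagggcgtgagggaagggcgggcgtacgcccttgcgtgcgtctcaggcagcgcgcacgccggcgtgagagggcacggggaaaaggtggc
RAB31: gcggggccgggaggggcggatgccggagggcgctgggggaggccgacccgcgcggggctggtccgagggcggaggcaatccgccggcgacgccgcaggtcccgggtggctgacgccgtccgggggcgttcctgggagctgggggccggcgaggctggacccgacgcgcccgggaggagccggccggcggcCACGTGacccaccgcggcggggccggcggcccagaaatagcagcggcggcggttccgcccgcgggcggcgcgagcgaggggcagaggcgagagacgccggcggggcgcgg
RAB5B: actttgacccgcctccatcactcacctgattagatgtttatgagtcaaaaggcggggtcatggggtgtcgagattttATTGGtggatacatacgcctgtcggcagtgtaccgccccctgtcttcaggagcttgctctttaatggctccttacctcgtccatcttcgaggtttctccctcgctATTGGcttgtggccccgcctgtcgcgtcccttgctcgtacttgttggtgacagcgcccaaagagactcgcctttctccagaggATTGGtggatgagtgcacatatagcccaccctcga
The E-box core CACGTG, which bHLH factors such as USF, MYC and TFEB are known to bind, began at base 130 of the RAB5A window and at base 191 of the RAB31 window, so it was present in a member called higher and in a member called lower. The RAB5B window held CCAAT boxes at bases 78, 183 and 266, and that of RAB10 held neither motif.

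Windows were found for 48 of the 60 RAB genes, 66 in all, and 5 motifs were searched on both strands. CACGTG was in 9.09% of the RAB windows and in 7.26% of all 35116 windows. It occurred in windows of 6 RAB genes, of which RAB5A, RAB21 and RAB29 were called higher and RAB31 lower. Of the 48 RAB genes with a window, 10 were called higher and 6 lower. CCAAT was in 33.3% of RAB windows and 34.6% of all. The cyclic AMP element TGACGTCA was in 1.52% and 1.85%. The endoplasmic reticulum stress element, which contains a CCAAT box, and the consensus NF-kB site were in 0 RAB windows and in 0.0769% and 0.191% of all windows. Median GC content was 63.3% for RAB windows and 58.7% for all. A match describes these letters only.

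**Figure D2:**
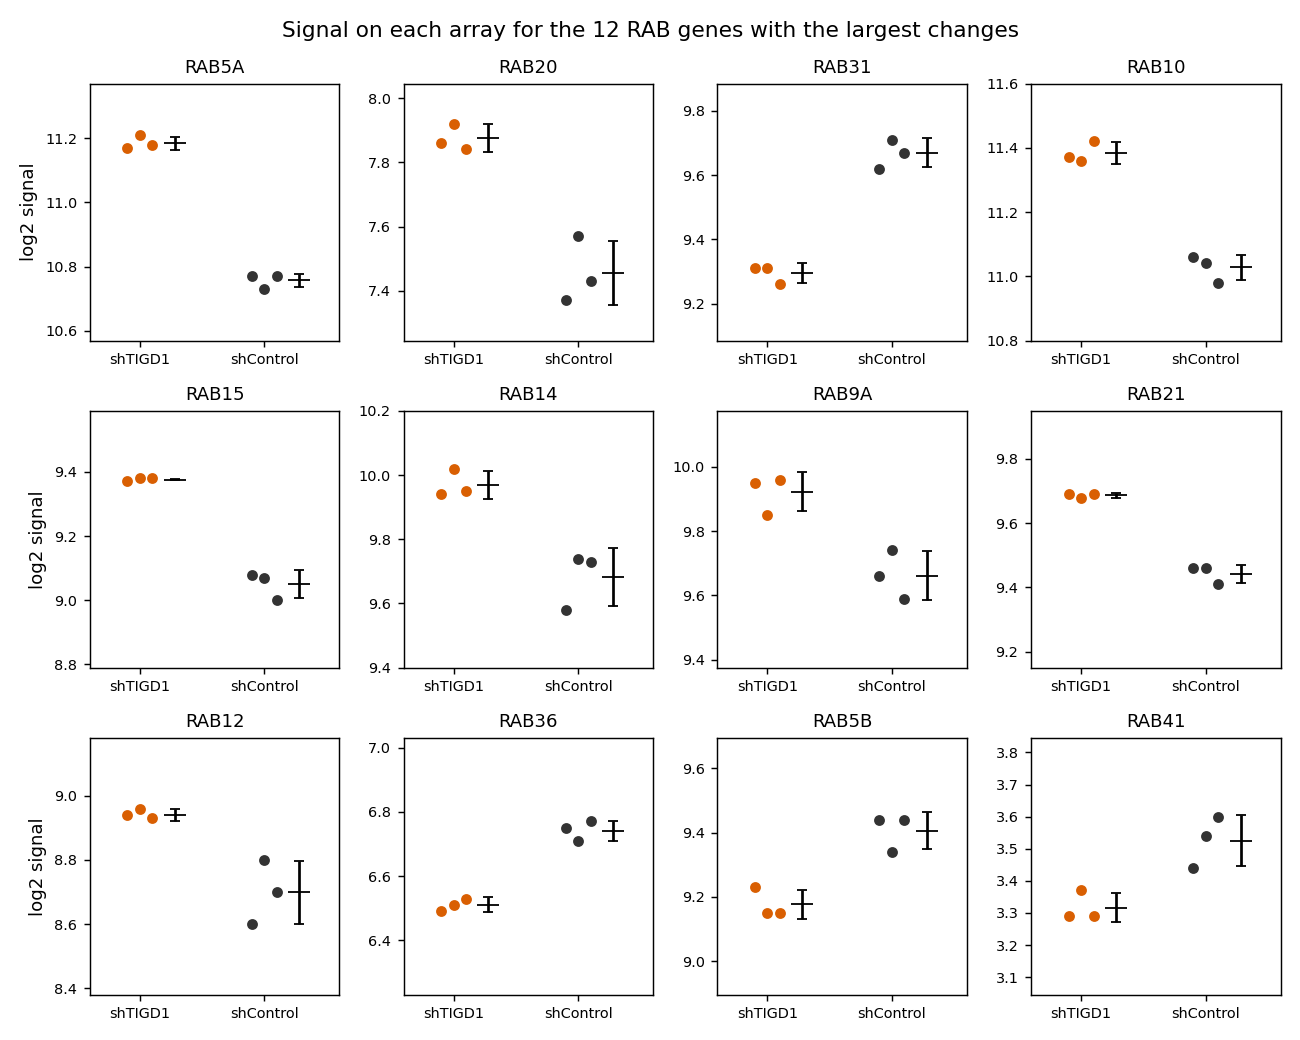
Log2 signal (vertical axes, which differ between panels and do not start at 0) on each of the 3 shTIGD1 and 3 shControl arrays for the 12 RAB genes with the largest changes past the threshold, with the mean and SD as a bar. In every panel the groups are apart, for example 11.17 to 11.21 against 10.73 to 10.77 for RAB5A. RAB41 lies near 3.3 to 3.6, close to the background.

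Recycling endosomes and polarised exocytosis held the most calls in 1 direction. Of 10 genes, 5 were higher and 1 lower, with a median of 0.18. Of all genes, 9.79% were higher and 14.0% lower, or 16.8% and 23.6% at a signal of at least 5 in 1 group. At an unadjusted p under 0.05, 7 of the 10 were higher and 1 lower. RAB10, which takes vesicles to the basolateral membrane and moves the glucose transporter GLUT4 in fat cells, read 11.37, 11.36 and 11.42 in shTIGD1, against 11.06, 11.04 and 10.98 in shControl. The groups did not overlap, and the change was 0.36 (SE 0.04, adjusted p = 0.00198), with 0.28 and no call on its other probe set (adjusted p = 0.1). RAB15, which acts between early and recycling endosomes, read 9.37, 9.38 and 9.38 in shTIGD1, against 9.08, 9.07 and 9.0 in shControl. Its shTIGD1 arrays lay close together, and the change was 0.32 (SE 0.04, adjusted p = 0.00222).

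RAB14, between the Golgi and endosomes, read 9.94, 10.02 and 9.95 in shTIGD1, against 9.58, 9.74 and 9.73 in shControl. The change was 0.29 (SE 0.05, adjusted p = 0.0132), with shControl replicate 1 the lowest array, but the second brightest probe set gave -0.0069 (adjusted p = 0.92). RAB11A, the main RAB of the recycling endosome, read 11.52, 11.47 and 11.52 in shTIGD1, against 11.30, 11.31 and 11.26 in shControl, a change of 0.21 (adjusted p = 0.00806). Its relative RAB11B read 10.12, 10.03 and 10.07 in shTIGD1, against 9.78, 9.97 and 9.94 in shControl. Its groups did not overlap either, but with shControl replicate 1 apart from the others the change of 0.18 did not pass (adjusted p = 0.0702). Of the dimmer RAB11B probe sets, 1 had the same sign and 5 the opposite, down to -0.15, and none passed. RAB25, the epithelial member of that branch, gave 0.15 and did not pass, at mean signals of 4.96 in shTIGD1 and 4.81 in shControl.

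RAB17, a RAB of polarised epithelia, was called higher by 0.18 (adjusted p = 0.0463) at means under 5 in both groups. The call was lost without any 1 of the arrays other than shControl replicate 1 (adjusted p of 0.0589 to 0.131). RAB8A, which delivers vesicles to the plasma membrane and the cilium, gave -0.15 (adjusted p = 0.0352). It was lost without any 1 of the arrays other than shTIGD1 replicate 3 (0.08 to 0.109), and on the control scales the change became 0.05 and 0.18. RAB8B gave -0.12 and RAB13, known from tight junctions, gave 0.06. Neither passed.

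Late endosomes, lysosomes and related organelles had 3 of 9 genes higher (33.3%) and 0 lower, with a median of 0.13. Of all genes, 9.79% were higher and 14.0% lower. At an unadjusted p under 0.05, 4 were higher and 0 lower. RAB9A, which returns mannose 6-phosphate receptors from late endosomes to the Golgi, read 9.95, 9.85 and 9.96 in shTIGD1, against 9.66, 9.74 and 9.59 in shControl. The groups did not overlap, and the change was 0.26 (SE 0.05, adjusted p = 0.0162). Leaving out shControl replicate 1, shTIGD1 replicate 1 or shTIGD1 replicate 3 ended the call, at adjusted p of 0.0505 to 0.0585. RAB12, which in mouse cells sends the transferrin receptor to degradation, read 8.94, 8.96 and 8.93 in shTIGD1, against 8.60, 8.80 and 8.70 in shControl.

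The RAB12 values were spread in shControl and close together in shTIGD1. Its change of 0.24 (SE 0.05, adjusted p = 0.0231) was lost without shControl replicate 3 or any 1 of the shTIGD1 arrays (0.0623 to 0.0722), and on the mean of its probe sets it became 0.13 (adjusted p = 0.156). RAB29, which brings the kinase LRRK2 to Golgi and lysosomal membranes, was higher by 0.18 (adjusted p = 0.0165), a call lost without shTIGD1 replicate 2 or 3 (0.0531 and 0.0539). RAB32 and RAB38, the RABs of melanosomes and other lysosome-related organelles, gave 0.13 and 0.14 without passing. The dimmer RAB38 probe sets, with means under 5, gave -0.09 and -0.16 and did not pass either. RAB7A, the central RAB of the late endosome, gave 0.02 with an interval of -0.06 to 0.10.

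Regulated secretion had 2 of 8 genes higher (25.0%) and 0 lower, beside 9.79% and 14.0% of all genes, with a median of 0.16. At an unadjusted p under 0.05, 4 were higher and 0 lower. RAB27A, which docks lytic granules, melanosomes and exosome-bearing endosomes, was higher by 0.19 (adjusted p = 0.0407). That call was lost without any 1 of the arrays other than shTIGD1 replicate 2 (0.0789 to 0.122). RAB26, found on secretory granules, was higher by 0.19 (adjusted p = 0.0338), which was lost without replicate 1 or 3 of either group (0.0915 to 0.106). RAB37, an exocytic RAB described in mast cells, read 6.53, 6.65 and 6.69 in shTIGD1, against 6.33, 6.46 and 6.46 in shControl.

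That RAB37 difference of 0.20 came without overlap but missed the threshold (adjusted p = 0.0525). RAB3D, a RAB of secretory granules in exocrine cells, read 5.81, 5.57 and 5.37 in shTIGD1, against 5.48, 5.46 and 5.27 in shControl. Its groups overlapped, and the change of 0.18 did not pass (adjusted p = 0.313). Of its relatives at synaptic and other regulated vesicles, RAB3A gave -0.04, RAB3B 0.13 and RAB3C 0.02, and none passed.

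The members grouped under the endoplasmic reticulum and Golgi had no call on a brightest probe set with a mean signal of 5 or more. RAB6A, RAB18, RAB2A and RAB33B were called higher on other probe sets. RAB14 and RAB29, called higher, and RAB31 and RAB36, called lower, are also described at the Golgi but were counted in other groups. Of the 13 genes in this group, 0 were higher and 2 lower (15.4%), beside 9.79% and 14.0% of all genes, with a median of 0.02. At an unadjusted p under 0.05, 1 was higher and 2 were lower. RAB1A, which directs transport to the Golgi, gave 0.02 with an interval of -0.06 to 0.09, and RAB1B gave 0.02. RAB2A and RAB2B, which act between the Golgi and the endoplasmic reticulum, gave 0.04 and 0.04. RAB18, of the endoplasmic reticulum and lipid droplets, came nearest to a call at 0.15 (adjusted p = 0.0518).

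Both falls in this group were at signals near the background. RAB41 read 3.29, 3.37 and 3.29 in shTIGD1, against 3.44, 3.54 and 3.60 in shControl, a difference of -0.21 (adjusted p = 0.0305). RAB6D gave means of 3.07 in shTIGD1 and 3.27 in shControl, a difference of -0.20 (adjusted p = 0.0231). The antigenomic background probes had a median of 3.24 on the shTIGD1 arrays and 3.29 on the shControl arrays. The highest background value of an array averaged 10.79 in shTIGD1 and 11.02 in shControl. Each call was lost without 4 of the 6 arrays in turn (0.0766 to 0.0958 for RAB41 and 0.0528 to 0.0689 for RAB6D). The arrays in question were shControl replicates 2 and 3 and shTIGD1 replicates 1 and 3 for RAB41, and the 3 shControl arrays and shTIGD1 replicate 3 for RAB6D.

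The ciliary and macropinosomal members RAB23, RAB28 and RAB34 gave 0.14, 0.05 and -0.12, and 0 of the 3 were called, with 0 higher and 1 lower at an unadjusted p under 0.05. RAB23 is known as an inhibitor of Hedgehog signalling. Among the 7 remaining members, 1 was higher (14.3%) and 1 lower (14.3%), beside 9.79% and 14.0% of all genes. RAB40B, a RAB with a SOCS box that works with a ubiquitin ligase, was higher by 0.21 (adjusted p = 0.0125), while RAB40C, of the same kind, gave -0.15 and did not pass (adjusted p = 0.108). RAB36, which has been placed at the Golgi and late endosomes, read 6.49, 6.51 and 6.53 in shTIGD1, against 6.75, 6.71 and 6.77 in shControl. Its groups were apart, and the change was -0.23 (SE 0.03, adjusted p = 0.0058), with -0.25 and no call on the second brightest probe set (adjusted p = 0.0757). On the poly-A scale it became 0.10.

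Close relatives were also set against each other within an array, where any scaling of the array cancels. The 14 pairs were chosen after their values were seen, and with 3 arrays against 3 the smallest two-sided exact permutation p is 0.1. The log2 signal of RAB5A minus that of RAB5B was 2.01 ± 0.06 in shTIGD1 and 1.35 ± 0.04 in shControl (SD, n = 3 each). The difference between the groups was 0.66 (exact p = 0.1, 0.156 after adjustment over the 14 pairs). RAB22A minus RAB31 was 0.20 ± 0.08 in shTIGD1 and -0.13 ± 0.04 in shControl, which differed by 0.32 (exact p = 0.1). RAB9A minus RAB9B differed by 0.31 and RAB40B minus RAB40C by 0.36, each at the same smallest p, which most of the 14 pairs reached. RAB9B was dim, with means of 4.24 in shTIGD1 and 4.29 in shControl. RAB11A minus RAB11B differed by 0.03 (exact p = 0.7), and RAB8A minus RAB8B by -0.03 (exact p = 0.7). All pairs use the brightest probe sets, and 5 of the dimmer RAB11B probe sets had the opposite sign to its brightest. RAB5B was lower on its brightest probe set alone, and its others gave 0.06 and 0.20. The signal offsets of different probe sets have no meaning of their own, so only the differences between the groups are comparable.

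The other probe sets of the same genes gave a second reading, though they share RNA and often sequence. Of the 166 RAB probe sets, 44 were higher (26.5%) and 11 lower (6.63%), beside 11.7% and 10.8% of all 45336 probe sets with 1 symbol (adjusted over all of them). Of the 21 called genes, 9 had 1 probe set. Of the other 12, 7 had another probe set called in the same direction, and 0 RAB genes had probe sets called in opposite directions. Counting any probe set, 32 RAB genes had a call (53.3%), beside 34.6% of all genes. More probe sets give a gene more chances of a call, and the 60 RAB genes had 166 while all 18265 genes had 45336.

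RAB5A was higher on all 4 of its probe sets. The dimmest of them read 9.07, 9.12 and 9.14 in shTIGD1, against 8.19, 8.27 and 8.17 in shControl, a change of 0.90 (an increase of 86.5%), and the other two gave 0.76 and 0.73. The brightest probe set therefore showed the smallest change of this gene. RAB11A likewise gave 0.23, 0.33 and 0.46 on its dimmer probe sets, all past the threshold. For RAB31 the dimmer probe sets gave -0.11, which did not pass, and -0.24 and -0.27, which did.

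For other genes the choice of probe set decided the call. RAB6A, the RAB of retrograde Golgi transport, gave 0.05 on its brightest probe set, but 4 of its 8 probe sets were called higher, by 0.29 to 0.36. RAB18 was called on 6 of 10, by up to 0.47. RAB23 had calls of 0.37 and 0.50, RAB2A of 0.15 and 0.27, and RAB28, RAB33B, RAB37, RAB4A and RAB13 of 0.37, 0.39, 0.37, 0.29 and 0.21. In the other direction RAB7A had a call of -0.25 and RAB39A one of -0.23. In all, 11 genes not called by their brightest probe set had another one called, 9 as higher and 2 as lower. That is 28.2% of the RAB genes not called by the brightest, beside 14.2% of all such genes. The dimmer probe sets of RAB14 gave -0.01, 0.20 and 0.14, of which 0.20 passed.

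**Figure D3:**
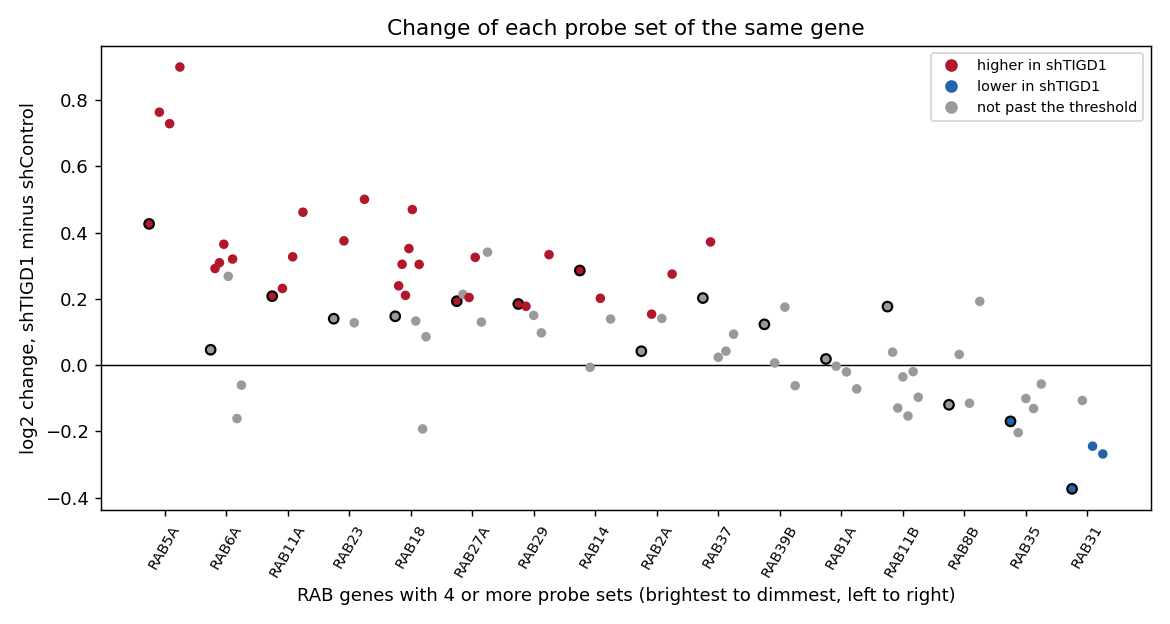
Log2 change (vertical axis, shTIGD1 minus shControl) of every probe set of the RAB genes with 4 or more probe sets, brightest to dimmest from left to right within a gene and the brightest ringed in black. Red passed as higher, blue as lower and grey did not pass. All 4 RAB5A probe sets are red, from 0.43 to 0.90, while RAB6A is grey on its brightest and red on 4 others.

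The genes that act on or with RABs were counted on 6 lists, 174 of whose 185 genes were tested. Of these, 32 were higher (18.4%) and 34 lower (19.5%), with a median of -0.02, beside 9.79% of all genes higher and 14.0% lower. Genes with a mean under 5 made up 5478 of all 18265 genes but 12 of the 174. At a signal of at least 5 in 1 group, 40 of 162 were higher and 44 lower, beside 16.8% and 23.6% of 12936 genes. Of all 174, 100 were higher and 6 lower on the hybridization control scale, and 131 and 1 on the poly-A scale. The 13 genes of prenylation and of the GDP-bound cycle had 3 higher (23.1%) and 0 lower, beside 9.79% and 14.0% of all genes. At an unadjusted p under 0.05, 4 of the 13 were higher and 1 lower. CHML, an escort protein that presents new RABs for prenylation, was higher by 0.39 (adjusted p = 0.00251), YIPF4 by 0.30 and YIPF6 by 0.15. The YIPF4 call ended on the mean of its probe sets, at 0.073 (adjusted p = 0.354), and on the second brightest, at 0.083 (adjusted p = 0.321). The 2 YIPF proteins are Golgi membrane proteins.

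Exchange factors had 6 of 40 higher (15.0%) and 9 lower (22.5%), with a median of -0.02. GAPs had 5 of 35 higher (14.3%) and 9 lower (25.7%), with a median of -0.04. Of all genes, 9.79% were higher and 14.0% lower, or 16.8% and 23.6% at a signal of at least 5 in 1 group. DENND4A, a GEF for RAB10, was higher by 0.34 (adjusted p = 0.00369), and so by 0.34 was RGP1, part of the GEF for RAB6. The second brightest RGP1 probe set gave 0.0041 (adjusted p = 0.952). MADD, a GEF for the RAB3 and RAB27 genes' products, changed by -0.37 (adjusted p = 0.00281), and DENND6B, a GEF for RAB14, changed by -0.45. Among the GAPs, TBC1D1, which acts on RAB10 and RAB8A in muscle and fat, changed by -0.45 (adjusted p = 0.00194), SGSM2, which acts on RAB32 and RAB38, by -0.40, TBC1D10A, a GAP of RAB27A and RAB35, by -0.36 and TBC1D8B by 0.36.

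Effectors and tethers had 13 of 68 higher (19.1%) and 15 lower (22.1%), with a median of -0.05. The shares of all genes were 9.79% and 14.0%, or 16.8% and 23.6% at a signal of at least 5 in 1 group. Of the 68, 4 had a mean under 5. The list as drawn up counts SH3BP5 (0.31, called higher) here rather than among the exchange factors. MYO5B, the motor that binds RAB11A and RAB8A and carries recycling endosomes to the apical side, was the largest rise on the lists. It read 8.11, 8.11 and 8.12 in shTIGD1, against 7.48, 7.59 and 7.32 in shControl, with a change of 0.65 (SE 0.07, adjusted p = 0.00181). SYTL1, an effector of RAB27, was higher by 0.54 (adjusted p = 0.00507). SYTL5, of the same family, gave 0.63 at means under 5 (adjusted p = 0.0337), against 0.035 on its second brightest probe set (adjusted p = 0.733). RUFY3, an adaptor that links lysosomes to dynein, changed by -0.46 (adjusted p = 0.00163), but its second brightest probe set gave 0.062.

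Of the 7 kinases and phosphatases that act on RABs, 1 was higher (14.3%) and 1 lower (14.3%), beside 9.79% and 14.0% of all genes. PPM1H, which removes the phosphate that LRRK2 places on RABs, gave 0.34 (adjusted p = 0.0296), and its relative PPM1M gave -0.26 (adjusted p = 0.0365), which became 0.074 on the poly-A scale and -0.032 on its second brightest probe set (adjusted p = 0.88). Of 11 RAB-like and more distant GTPases, 4 were higher (36.4%) and 0 lower, beside 9.79% and 14.0% of all genes. At an unadjusted p under 0.05, 5 of the 11 were higher and 0 lower. ARL6, which recruits the BBSome coat of cilia, was higher by 0.53 (adjusted p = 0.000445), and IFT27, of the intraflagellar transport train, by 0.17. RABL2B and RABL2A were higher by 0.49 and 0.43, but they are near-identical copies whose probes may not tell them apart. Calls of SYTL5, PPM1H, PPM1M, IFT27 and YIPF6 were each lost without 4 to 6 of the arrays in turn, at adjusted p of 0.0512 to 0.106.

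**Figure D4:**
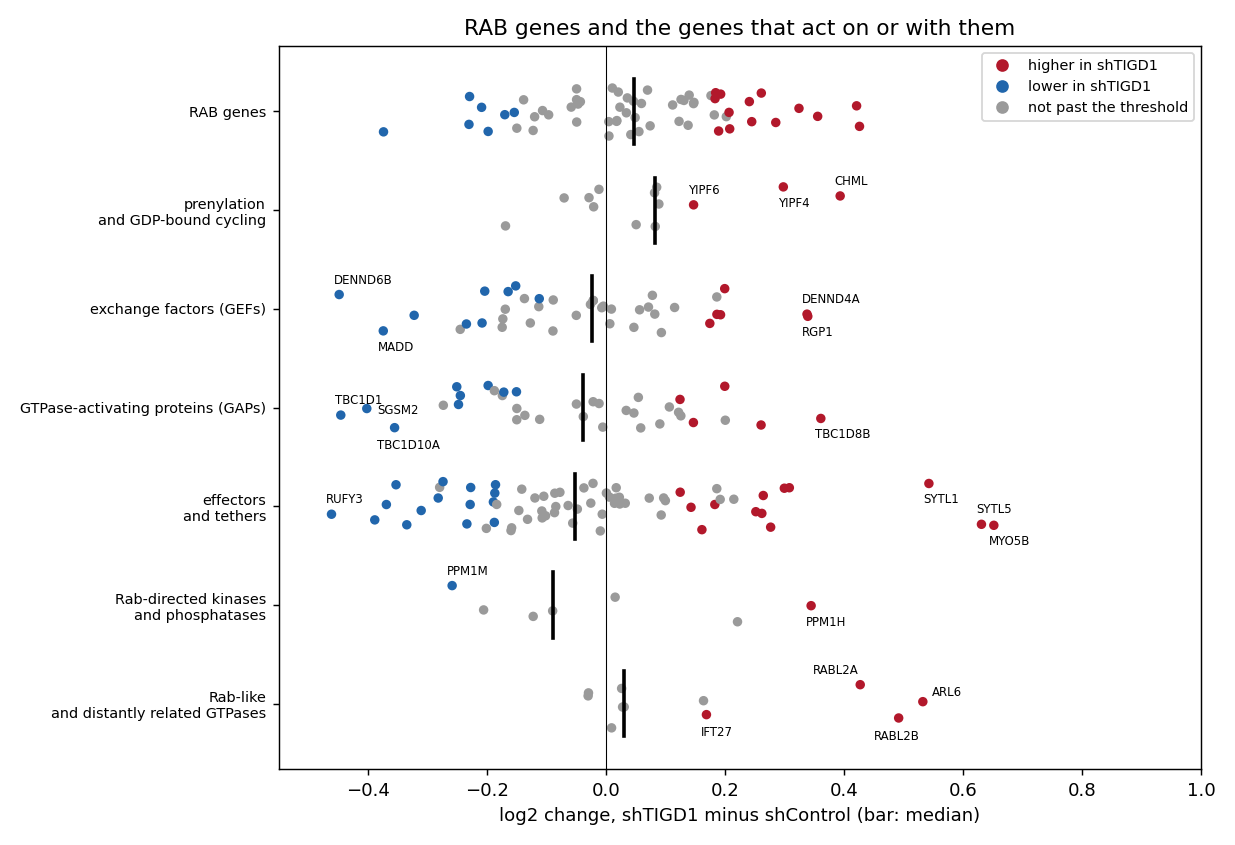
Log2 change (horizontal axis, shTIGD1 minus shControl) of the 60 RAB genes and of the 174 tested genes that act on or with them, by list, with the median as a bar and the named genes labelled. Red passed as higher, blue as lower and grey did not pass. MYO5B at 0.65 lies furthest to the right, and the medians lie between -0.09 and 0.08.

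Of the 21 called RAB genes, 10 kept their call without each array in turn: RAB5A, RAB10, RAB11A, RAB14, RAB15, RAB20, RAB21, RAB31, RAB36 and RAB40B. The other 11 lost it in at least 1 such comparison. RAB5A, RAB11A, RAB15, RAB20, RAB21 and RAB40B also kept it under the 8 other alternatives that gave a value per gene, apart from the control scalings and limma's treat. RAB15, RAB20 and RAB40B have a single probe set, so for them the choice of probe set changes nothing.

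**Figure D5:**
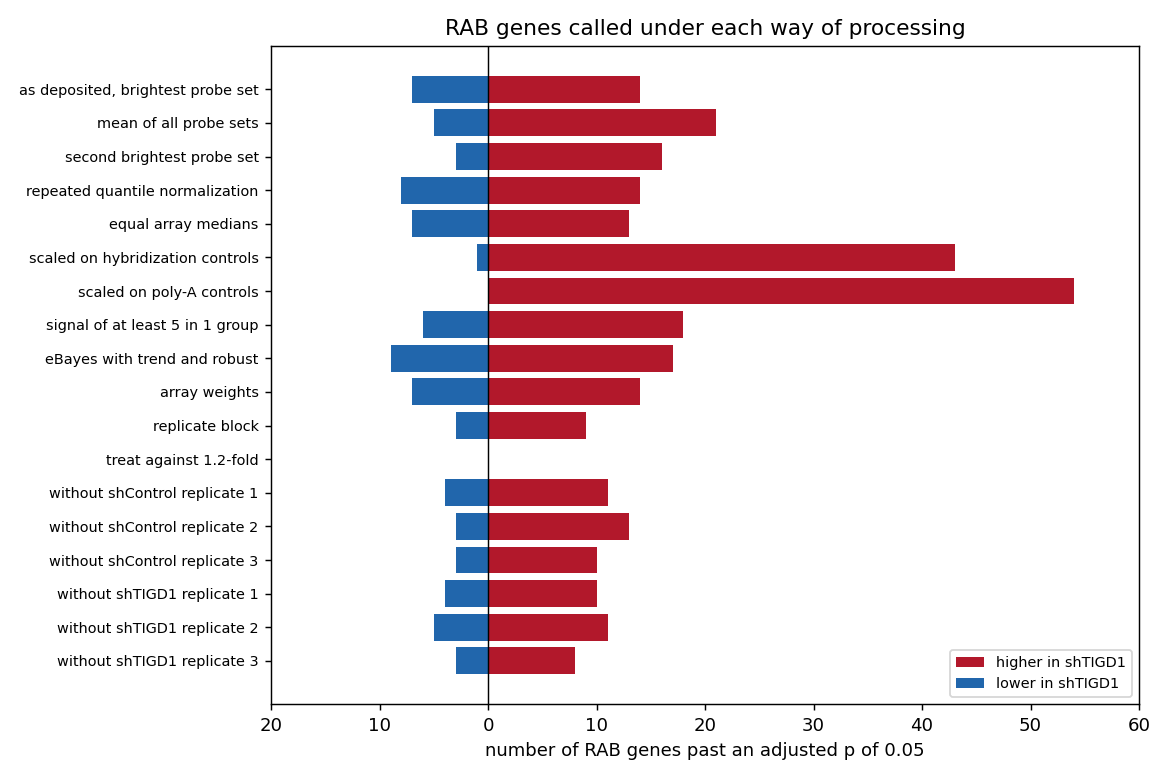
Number of RAB genes past an adjusted p of 0.05 (horizontal axis, higher in shTIGD1 to the right in red and lower to the left in blue) under each way of processing. The values as deposited gave 14 and 7, the control scalings 43 and 1 or 54 and 0, and treat against 1.2-fold 0 and 0.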

How the data were processed

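Biotin-labelled RNA of A549 cells was hybridized to Affymetrix arrays of 1 colour. The authors deposited log2 signals for each probe set, for which the submitters' processing notes name GCOS and RMA. No version or log base is given in the sources used here, and base 2 was read from the range. RMA makes arrays alike, so that a shift common to most genes is removed.

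Of 49395 probe sets, 102 were controls, 45336 had 1 symbol, 1275 several and 2682 none. Symbols came from the platform's annotation, and looking them up by Entrez identifier changed 0. The brightest probe set stood for a gene. RAB43 and RAB6C had only probe sets shared with other genes and were not tested. The test was limma's lmFit with eBayes (version 3.58.1, R 4.3.3), two-sided, with Benjamini-Hochberg adjustment over 18265 genes and a threshold of 0.05. Tables used Python 3.11.15 and pandas 2.3.3. The script was tested on simulated data.

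Members, role groups and partner lists were chosen with earlier results of these data known. Every member could be named. Values on every array were given for the 12 largest changes past the threshold, for members with probe sets called in opposite directions and for the 3 largest changes not past, and up to 4 genes per partner list were named. Array values of RAB11A, MYO5B and 1 further RAB5A probe set, and the relatives, motifs and promoters, were chosen after the values were seen.

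Arrays of the same number did not vary together: their deviations from the group means correlated at -0.03, -0.13 and -0.09, so the numbers were not taken as pairs. No array was a copy of another, since any 2 had equal values on 184 probe sets at most. Alternatives were other probe sets, scalings, filters and variance models, and leaving out each array. Scan dates were not used here.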

Additional observations from a re-analysis of the deposited data

Results flagged for a closer look

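One signal lay outside the genes compared above. A probe set that the annotation gives to RAB6A, RAB6C and RAB6D together, and which therefore entered no gene's value, was higher in shTIGD1 by 0.51 on the log2 scale (SE 0.05). It read 7.63, 7.61 and 7.67 on the shTIGD1 arrays, against 7.08, 7.22 and 7.08 on the shControl arrays, and the groups did not overlap. In a fit over all 49293 probe sets other than controls, made after the data were seen, its limma adjusted p was 0.00149. The other probe set shared by these 3 genes gave -0.04 (adjusted p = 0.673), and which transcripts each of them reads was not analysed here.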

How the results depend on the processing

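Counts are given as higher and lower in shTIGD1, for all genes, RAB genes and partner genes in turn, beside 1789 and 2556, 14 and 7, and 32 and 34 in the values as reported. Scaling on hybridization controls gave 8738 and 361, 43 and 1, and 100 and 6. Scaling on poly-A controls gave 13965 and 119, 54 and 0, and 131 and 1. The replicate block, on numbers that did not pair the arrays, gave 1095 and 1293, 9 and 3, and 20 and 22. Limma's treat against 1.2-fold gave 175 and 87, 0 and 0, and 2 and 0. Every probe set on its own gave 5305 and 4910, 44 and 11, and 84 and 71 probe sets. The second brightest probe set gave 3 RAB genes lower. Leaving out 1 array in turn gave 1176 to 1474 genes higher and 1566 to 1915 lower, 8 to 13 and 3 to 5 RAB genes, and 18 to 23 and 20 to 27 partner genes, with fewer arrays in each fit. The mean of all probe sets, repeated quantile normalization, equal medians, a signal of at least 5, array weights, and trend and robust settings kept every count within 1.5-fold. Hybridization scaling turned RAB3A to 0.17, RAB6D to 0.01, RAB8A to 0.054, RAB9B and RAB22A to 0.16 and RAB35 to 0.038. Poly-A scaling turned RAB3A and RAB9B to 0.29, RAB4B to 0.23, RAB5B and RAB36 to 0.10, RAB6B to 0.27, RAB6D to 0.14, RAB8A and RAB40C to 0.18, RAB8B and RAB34 to 0.21, RAB22A, RAB24 and RAB39A to 0.28, RAB35 to 0.16, RAB41 to 0.12, RAB42 to 0.24 and PPM1M to 0.074. Each of these scalings moves all genes of an array alike. The mean of all probe sets turned RAB5B to 0.0091, and the second brightest turned RAB5B to 0.058, RUFY3 to 0.062 and RAB14 to -0.0069. The causes were not tested. On the second brightest probe set, calls also ended for RAB10 (0.28, adjusted p = 0.1), RAB12 (0.19, 0.149), RAB27A (0.21, 0.113), RAB31 (-0.11, 0.108), RAB35 (-0.20, 0.063), RAB36 (-0.25, 0.0757), RGP1, YIPF4, SYTL5 and PPM1M, and, with a single probe set, for RAB8A (0.0523) and RAB17 (0.0593). On the mean they ended for RAB12, RAB35 (-0.13, 0.0551), YIPF4, RUFY3 (-0.12, 0.0606) and PPM1M (-0.15, 0.27). Signals near the background limit RAB17, RAB41 and RAB6D.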
